A study of Homo sapiens with 16 samples.

Results

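The CD3 complex and the kinases and scaffolds next to it were followed as 9 genes, named by symbol: the CD3 chains CD3D, CD3E, CD3G and CD247, the kinases LCK, FYN and ZAP70, and the scaffolds LAT and LCP2. They are 9 of the 58295 genes in the files, and all 9 were among the 18073 genes with enough reads to be tested. RNA came from JSL1 cells, a clone of Jurkat, a human T cell leukaemia line. The compared lines differ at HDAC7, a class IIa histone deacetylase. The line labelled iE9 was edited to include exon 9 (genotype HDAC7 E9 knock-in), the line dE9 was edited to lack it, and WT is the unedited JSL1 clone. Each line was given PMA (phorbol 12-myristate 13-acetate) at 20 ng/mL or growth medium alone, and the sample labels give 48 h for both arms. The series text instead sets 0 h against 48 h of PMA, and if the unstimulated arm was taken at 0 h, PMA and time in culture cannot be told apart. There were 3 libraries of iE9, 3 of dE9 and 2 of WT with PMA, against 3, 3 and 2 unstimulated libraries. The labels do not say whether an edited line is 1 clone or whether libraries came from separate cultures, and the p-values below therefore reflect library-to-library spread alone, which may be technical.

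The T cell receptor has no enzyme of its own. The CD3 chains carry its tyrosine motifs, which LCK and FYN phosphorylate, and ZAP70 docks on the phosphorylated motifs and in turn phosphorylates LAT and LCP2 (SLP-76), on which phospholipase C and Ras activators assemble. PMA enters below these steps, because it mimics diacylglycerol and activates protein kinase C and RasGRP without the receptor.

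Libraries held 14536537 to 21888896 estimated fragments. The exon 9 share is taken over the abundance of HDAC7 transcripts that hold exon 9 or span its site without it. It was 0 to 0.678% in dE9 with PMA and 0.841 to 7.37% in unstimulated dE9. In libraries labelled iE9 it was 42.3 to 63.0% with PMA and 51.8 to 74.8% unstimulated. In WT it was 43.1 to 53.8% with PMA and 46.6 to 47.5% unstimulated. With PMA the exon 9 shares of the libraries labelled iE9 therefore overlapped those of WT, which applies to every direction given for that line below. HDAC7 itself was also higher in unstimulated libraries labelled iE9. The log2 fold change was 1.66 ± 0.22 over dE9 (adjusted p = 0.00224) and 1.70 ± 0.25 over WT (adjusted p = 0.00698; ± SE, edgeR). With PMA it was 0.90 ± 0.21 over dE9 (adjusted p = 0.0393) and 0.54 ± 0.24 over WT (adjusted p = 0.328; edgeR). PMA raised HDAC7 by 1.70 ± 0.14 over the lines. The part of HDAC7 level in the differences below was not tested. The iE9 libraries numbered 1 had a mitochondrial share of 12.81% with PMA and 9.17% unstimulated, against 5.2 to 6.39% in the other PMA libraries and 3 to 4.14% in the other unstimulated ones. Every PMA library thus had a higher mitochondrial share than every unstimulated library of its line, apart from iE9 unstimulated library 1, and the part of this in the PMA differences was not tested. On the first principal component dE9 PMA library 1 lay at 24.5, against 66.2 and 75 for the other dE9 PMA libraries. The T cell marker list summed to 2763 to 5478 CPM (a count scaled to the total of its library) with PMA and 1365 to 3491 unstimulated, without TMM scaling, with 10 of 10 markers present. That list includes the CD3 chains followed here and the receptor chain genes TRAC, TRBC1 and TRBC2. Its sum is therefore not separate from the results below. The B cell list, with 2 of 5 markers at 1 CPM or more in some library, summed to 9.76 to 409 CPM with PMA and 6.76 to 124 CPM unstimulated, while MS4A1 and PAX5 stayed under 1 CPM throughout. The natural killer list, with 3 of 6 such markers, summed to 16.6 to 33.3 CPM with PMA and 12.0 to 49.6 CPM unstimulated. The erythroid list, with 2 of 5, summed to 0.818 to 33.0 CPM with PMA and 0.709 to 4.54 CPM unstimulated. The myeloid list, with 1 of 6, reached at most 9.35 CPM with PMA and 1.04 CPM unstimulated, with CD14, CSF1R, FCGR3A, LYZ and S100A8 under 1 CPM throughout. The epithelial list, with 1 of 5, reached at most 2.75 CPM with PMA and 1.97 CPM unstimulated. The part of these markers in the PMA differences was not tested.

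The sequences below were chosen because LCK has a pair of promoters whose use is measured here, and because LAT, LCP2 and CD3D were called higher with PMA. FYN was also called higher, but its windows are not printed. They are RefSeq windows on GRCh38.p14, from 250 bases before to 50 after an annotated start, read 5′ to 3′ on the gene's strand. Capitals mark matches, on either strand, to the AP-1 motif TGANTCA, the RUNX core TGTGGT and the ETS core AGGAAG. No searched motif overlapped another in these windows, although 2 ETS matches in CD3D share bases. Of 35116 such windows genome-wide, 7.71% held the AP-1 letters, 13.1% the RUNX letters and 33.6% the ETS letters. A match is a description of letters and says nothing of binding. The table had 14 windows for 7 of the 9 genes, and none for CD3E and CD3G.
LCK distal promoter, chr1:32251015-32251314, plus strand: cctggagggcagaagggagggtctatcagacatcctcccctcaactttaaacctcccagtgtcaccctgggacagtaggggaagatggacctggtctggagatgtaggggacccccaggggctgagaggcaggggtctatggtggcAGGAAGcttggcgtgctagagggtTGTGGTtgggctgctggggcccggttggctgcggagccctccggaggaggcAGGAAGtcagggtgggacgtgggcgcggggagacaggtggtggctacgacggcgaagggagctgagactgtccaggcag
LCK proximal promoter, chr1:32273871-32274170, plus strand: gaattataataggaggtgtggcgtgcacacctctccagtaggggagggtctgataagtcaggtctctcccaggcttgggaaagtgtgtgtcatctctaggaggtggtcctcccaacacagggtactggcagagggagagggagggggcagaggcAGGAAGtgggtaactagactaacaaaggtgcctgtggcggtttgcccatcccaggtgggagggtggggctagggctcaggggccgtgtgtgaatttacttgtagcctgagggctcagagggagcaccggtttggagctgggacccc
LAT, chr16:28984802-28985101, plus strand: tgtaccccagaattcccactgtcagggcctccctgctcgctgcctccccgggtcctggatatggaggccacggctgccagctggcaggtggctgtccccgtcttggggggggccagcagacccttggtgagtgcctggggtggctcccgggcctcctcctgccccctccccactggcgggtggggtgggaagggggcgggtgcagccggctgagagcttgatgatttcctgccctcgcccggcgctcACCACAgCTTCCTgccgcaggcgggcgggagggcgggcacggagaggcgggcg
LCP2, chr5:170297728-170298027, minus strand: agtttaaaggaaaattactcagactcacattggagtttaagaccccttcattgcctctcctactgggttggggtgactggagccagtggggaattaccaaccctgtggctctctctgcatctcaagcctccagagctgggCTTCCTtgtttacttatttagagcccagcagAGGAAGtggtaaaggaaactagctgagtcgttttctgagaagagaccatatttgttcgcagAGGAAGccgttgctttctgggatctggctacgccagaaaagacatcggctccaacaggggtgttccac
CD3D, chr11:118342656-118342955, minus strand: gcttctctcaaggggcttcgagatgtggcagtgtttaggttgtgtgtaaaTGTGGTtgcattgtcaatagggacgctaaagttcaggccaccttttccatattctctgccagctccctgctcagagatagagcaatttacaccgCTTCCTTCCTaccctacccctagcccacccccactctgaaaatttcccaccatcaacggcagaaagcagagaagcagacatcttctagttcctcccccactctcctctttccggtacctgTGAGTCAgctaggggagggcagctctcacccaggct
The LCK distal window held 1 RUNX and 2 ETS matches and the proximal window 1 ETS match. CD3D was the one printed window with an AP-1 match, 14 bases after the start. A further LAT window just upstream, which is not printed, also held 1 AP-1 match. Among other windows not printed, those of FYN held no AP-1 or ETS match and 1 RUNX match. A ZAP70 window held 1 AP-1 match, and another ZAP70 window and the CD247 window held 2 ETS matches each. LCP2 held 3 ETS matches.

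PMA raised both scaffolds, FYN and 2 CD3 chains, while the LCK and ZAP70 totals did not pass the test. Over the mean of the 3 lines, 5 of the 9 genes rose and 0 fell (edgeR quasi-likelihood test, Benjamini-Hochberg adjusted p under 0.05 over all 18073 genes). Over all genes tested, 26.6% rose and 26% fell. The median log2 fold change of the 9 genes was 0.63, against 0.03 for all genes tested. With the libraries paired by number within each line, 8 of the 9 rose, CD3G, CD247 and ZAP70 being the additional ones, and LCK did not (adjusted p = 0.485). The 26.6% and 26% are from the unpaired fit, so the paired count has no matching share of all genes here. Levels are given as CPM after TMM scaling, a factor that aligns the bulk of genes between libraries. In WT, with 2 libraries per arm, the groups of all 9 genes were separate, those of LCK and ZAP70 included. The share of all genes with separate groups was not counted, so separation is given below as description only. Fewer cells and less RNA per cell cannot be told apart in such bulk samples.

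**Figure D1:**
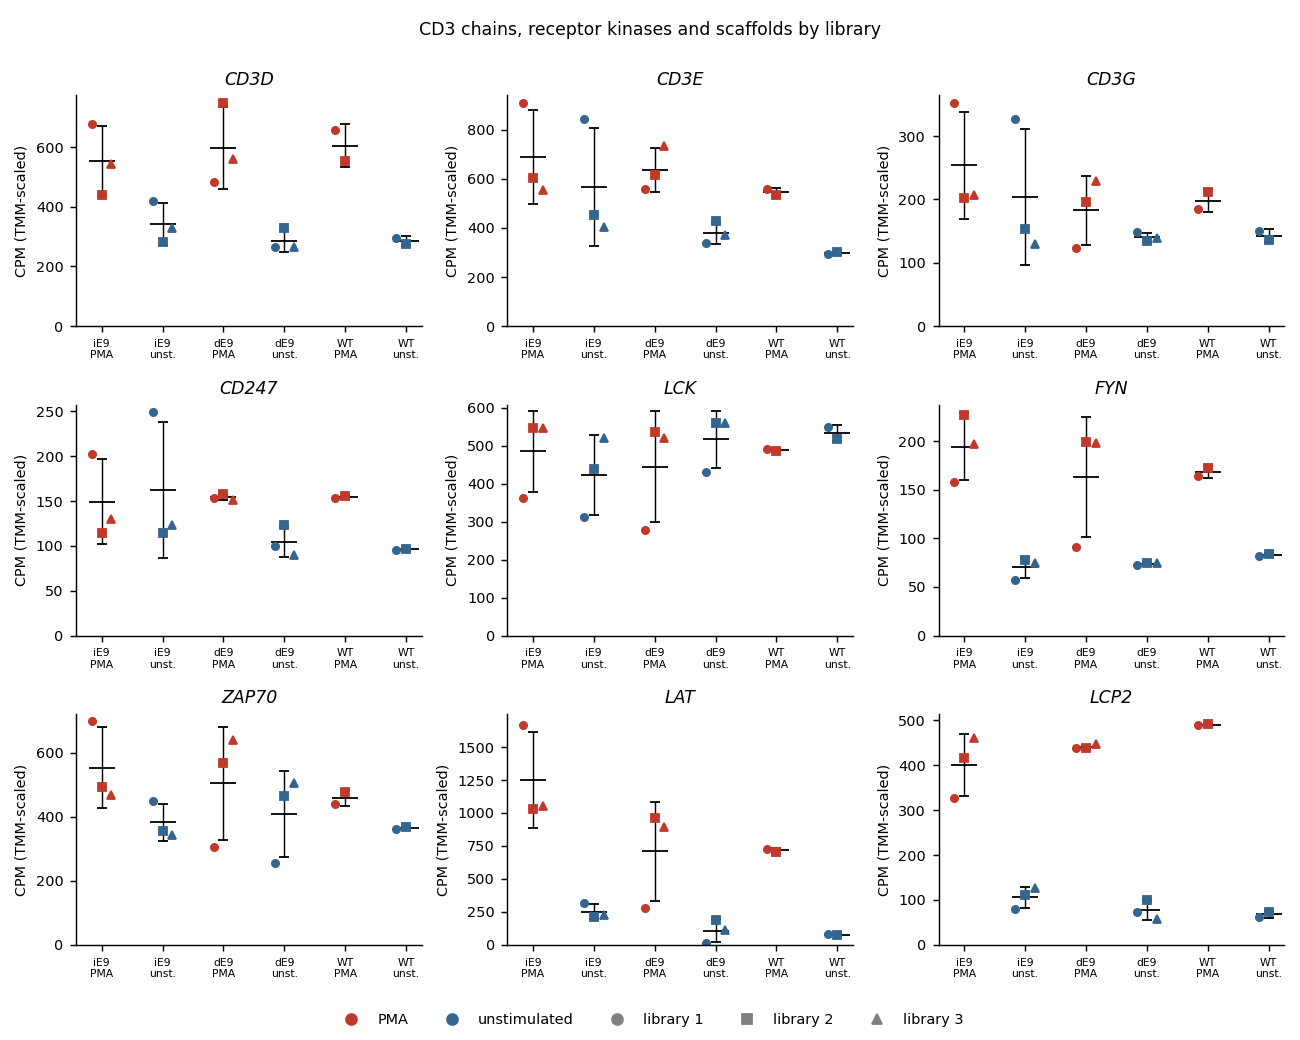
CPM of each gene (vertical axes, starting at 0) in every library, with PMA left of unstimulated within each line and lines in the order iE9, dE9, WT. Symbols are libraries, the bar is the mean and whiskers are the SD. LAT, LCP2 and FYN had every PMA library above every unstimulated library of the same line, while LCK overlapped in the line labelled iE9 and in dE9.

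LAT, the membrane adaptor, had the largest fold change of the 9 over the lines. It had 1667, 1029.6 and 1052 CPM in the PMA libraries labelled iE9, against 318, 209.7 and 229 CPM in the unstimulated ones. In dE9 it had 279, 964 and 890.3 CPM with PMA, against 15.8, 188 and 116 CPM unstimulated. In WT it had 728 and 704 CPM with PMA, against 79.3 and 74.0 CPM unstimulated. No line's groups overlapped, and library 1 of dE9 was the lowest in both treatments of that line. The log2 fold change was 2.31 ± 0.62 in iE9 (adjusted p = 0.0123), 2.74 ± 0.63 in dE9 (adjusted p = 0.0039) and 3.22 ± 0.79 in WT (adjusted p = 0.00954; ± SE, edgeR). Over the lines it was 2.76 ± 0.40 (adjusted p = 3.99e-05, edgeR). Leaving out iE9 unstimulated library 2 ended the iE9 call (adjusted p = 0.0549). Leaving out either unstimulated WT library ended the WT call (adjusted p up to 0.0836), and without dE9 unstimulated library 2 the dE9 value was 3.43. Without both iE9 libraries numbered 1, the iE9 value was 2.25 ± 0.80 (adjusted p = 0.0581, edgeR).

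LAT overlaps AC109460.3, a transcript on the same strand, and the antisense gene AC109460.4, and the sources used here do not say whether counting used strand. AC109460.3 averaged 15.9 ± 6.41 CPM with PMA and 6.88 ± 4.51 CPM unstimulated (SD, n = 8 each), with a log2 fold change of 1.36 ± 0.25 (adjusted p = 0.000356, edgeR). AC109460.4 had a mean of 0.561 estimated counts per library. Both averages were far below those of LAT. In dE9 unstimulated library 1, however, LAT had only 15.8 CPM, and AC109460.3 is not given here for that library.

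LCP2, the cytosolic scaffold, had 326, 415 and 461 CPM in the PMA libraries labelled iE9, against 79.9, 111 and 126 CPM in the unstimulated ones. It had 439, 437 and 446 CPM in dE9 with PMA, against 72.9, 101 and 56.9 CPM in unstimulated dE9. It had 489 and 491 CPM in WT with PMA, against 63.1 and 72.8 CPM in unstimulated WT. The groups were separate in all 3 lines. PMA over unstimulated gave a log2 fold change of 1.92 ± 0.22 in iE9 (adjusted p = 3.45e-05), 2.52 ± 0.22 in dE9 (adjusted p = 4.32e-06) and 2.85 ± 0.28 in WT (adjusted p = 2.26e-05; edgeR). The difference between the iE9 and WT responses was -0.93 ± 0.34 and did not pass the test (adjusted p = 0.749, edgeR). Against dE9 that difference was -0.60 ± 0.30 (adjusted p = 0.76, edgeR). C5orf58, which overlaps LCP2, averaged 2.55 ± 1.13 CPM with PMA and 0.378 ± 0.358 CPM unstimulated (SD, n = 8 each).

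FYN, the Src-family kinase that shares CD3 substrates with LCK, had 158, 227 and 197 CPM in the PMA libraries labelled iE9, against 57.6, 77.9 and 75.0 CPM in the unstimulated ones. It had 91.5, 199 and 198 CPM in dE9 with PMA, against 72.3, 74.8 and 74.9 CPM in unstimulated dE9. It had 164 and 173 CPM in WT with PMA, against 81.8 and 83.9 CPM in unstimulated WT. Again no line's groups overlapped, and dE9 PMA library 1 was the nearest to the unstimulated level. On the log2 scale the fold change was 1.47 ± 0.24 in iE9 (adjusted p = 0.000608), 1.14 ± 0.24 in dE9 (adjusted p = 0.00239) and 1.02 ± 0.30 in WT (adjusted p = 0.0231; edgeR). Leaving out any 1 of the 4 WT libraries ended the WT call, with adjusted p up to 0.139.

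CD3D encodes the delta chain of the complex. It had 677, 441 and 543 CPM in the PMA libraries labelled iE9, against 419, 280.5 and 328 CPM in the unstimulated ones. It had 483, 749 and 561 CPM in dE9 with PMA, against 264, 329 and 267 CPM in unstimulated dE9. It had 656 and 554 CPM in WT with PMA, against 297 and 274 CPM in unstimulated WT. The groups were separate in each line. In log2 units the fold change was 0.69 ± 0.21 in iE9 (adjusted p = 0.0248), 1.06 ± 0.21 in dE9 (adjusted p = 0.00162) and 1.08 ± 0.26 in WT (adjusted p = 0.00903; edgeR). The iE9 call was lost without iE9 unstimulated library 2 or 3 or iE9 PMA library 1 or 3 (adjusted p up to 0.111). The WT call was lost without WT unstimulated library 1 or 2 or WT PMA library 1 (adjusted p up to 0.0758).

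CD3E, the epsilon chain, rose in dE9, with 558, 616 and 735 CPM with PMA against 340.3, 429 and 372 CPM unstimulated. In dE9 the log2 fold change was 0.74 ± 0.26 (adjusted p = 0.0373, edgeR). Leaving out 1 library ended that call for 7 of the 16, namely both unstimulated WT libraries, all 3 unstimulated dE9 libraries and dE9 PMA libraries 2 and 3 (adjusted p up to 0.114). In the libraries labelled iE9 it had 909, 602 and 554 CPM with PMA against 843, 452 and 403 CPM unstimulated, and library 1 was the highest in both treatments. Its log2 fold change there was 0.28 ± 0.26 (adjusted p = 0.447, edgeR), and without both libraries numbered 1 it was 0.44 ± 0.15 (adjusted p = 0.0466, edgeR). In WT it had 557 and 534 CPM with PMA, against 294 and 300.1 CPM unstimulated, with no overlap and a log2 fold change of 0.88 ± 0.32 (adjusted p = 0.0588, edgeR). The WT value passed in 4 of the 16 fits that left out 1 library, without both iE9 libraries numbered 1 (0.88 ± 0.15, adjusted p = 0.0013, edgeR) and with the libraries paired by number within lines (adjusted p = 0.00107, edgeR). Paired in that way, the iE9 value passed as well (adjusted p = 0.0385, edgeR).

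CD3G, the gamma chain, and CD247, the zeta chain that carries most of the tyrosine motifs, did not pass the test in any line when all libraries were fitted without pairing. CD3G averaged 254 ± 84.8 CPM with PMA and 204 ± 108 CPM unstimulated in the libraries labelled iE9 (SD, n = 3 each). It averaged 183 ± 54.5 and 141 ± 7.33 CPM in dE9 with PMA and unstimulated (SD, n = 3 each), and 198 ± 18.4 and 143 ± 10.6 CPM in WT with PMA and unstimulated (SD, n = 2 each). CD247 had 203, 114 and 129.7 CPM in the PMA libraries labelled iE9, against 249, 115 and 123 CPM in the unstimulated ones. It had 154, 158 and 151 CPM in dE9 with PMA, against 99.9, 123 and 90.1 CPM in unstimulated dE9. It had 153 and 156 CPM in WT with PMA, against 95.6 and 97.0 CPM in unstimulated WT. CD247 groups were separate in dE9 and in WT, where those of all 9 genes were, and overlapped in the line labelled iE9. Its log2 fold change was -0.12 ± 0.27 in iE9 (adjusted p = 0.771), 0.56 ± 0.27 in dE9 (adjusted p = 0.122) and 0.68 ± 0.33 in WT (adjusted p = 0.152; edgeR). Without both iE9 libraries numbered 1 the CD247 value passed in dE9 (0.56, adjusted p = 0.00217), in WT (0.68, adjusted p = 0.00384) and over the lines (0.43, adjusted p = 0.000489; edgeR). With the libraries paired by number within lines it passed in dE9 (adjusted p = 0.00206) and WT (adjusted p = 0.00376; edgeR). The iE9 value was 0.04 without both libraries numbered 1 and 0.32 without unstimulated library 1 alone. CD3G passed over the lines without both of those libraries (0.46, adjusted p = 0.0066, edgeR), and in iE9 without unstimulated library 1 (0.83, adjusted p = 0.029, edgeR).

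ZAP70, the Syk-family kinase, averaged 554 ± 126 CPM with PMA and 383 ± 59.1 CPM unstimulated in the libraries labelled iE9 (SD, n = 3 each). It averaged 505 ± 176 and 409 ± 134 CPM in dE9 with PMA and unstimulated (SD, n = 3 each), and 459 ± 25.2 and 365 ± 3.89 CPM in WT with PMA and unstimulated (SD, n = 2 each). The log2 fold change over the lines was 0.39 ± 0.18 (adjusted p = 0.0752, edgeR). Paired by number within lines, it passed in iE9 (adjusted p = 0.000851), dE9 (adjusted p = 0.0145) and WT (adjusted p = 0.028; edgeR).

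The total of LCK, the kinase that starts the cascade, did not pass the test in any line. It had 363, 548 and 547 CPM in the PMA libraries labelled iE9, against 312, 439 and 521 CPM in the unstimulated ones. It had 277, 538 and 521 CPM in dE9 with PMA, against 429.9, 561 and 560.3 CPM in unstimulated dE9. It had 491 and 487 CPM in WT with PMA, against 549 and 519 CPM in unstimulated WT. The log2 fold change over the lines was -0.05 ± 0.16 (adjusted p = 0.824, edgeR), and its sign turned under upper-quartile scaling (0.01) and with protein-coding transcripts alone (0.05).

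By line, PMA raised LAT, LCP2, FYN and CD3D in each of the 3 lines and CD3E in dE9 as well. That is 4 of 9 genes in the line labelled iE9, against 12.6% of all genes tested called higher, 5 of 9 in dE9, against 17.1%, and 4 of 9 in WT, against 11.1%. Paired by number within lines, the iE9 count was 6, the dE9 count 7 and the WT count 7. Fitted on the WT libraries alone, the WT count was 8. The shares of all genes above are from the unpaired fit of all libraries. The counts from other fits therefore have no matching share here. Leaving out WT unstimulated library 1 or 2 left a WT count of 1 and leaving out WT PMA library 1 a count of 2, and without iE9 unstimulated library 2 the iE9 count was 2.

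**Figure D2:**
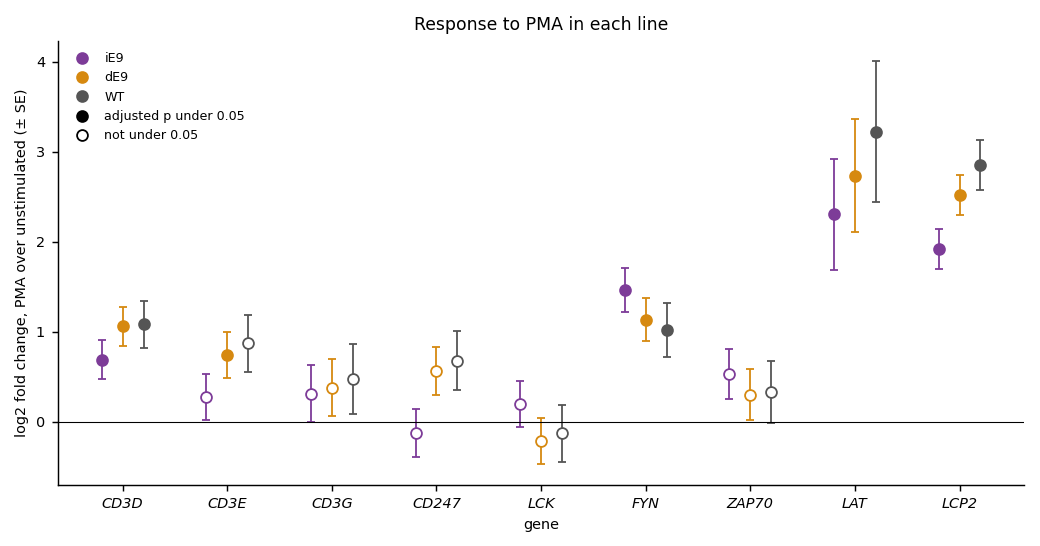
Log2 fold change with PMA over unstimulated (vertical axis, ± SE) for each gene, with lines in the order iE9, dE9, WT. Filled points passed adjusted p under 0.05. LAT and LCP2 lay between 1.92 and 3.22 in all lines, and LCK lay near 0.

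Although the LCK total did not pass the test, its transcripts shifted between promoters. LCK has a distal start at chr1:32251239 and a proximal start at chr1:32274111, 22872 bases apart (GENCODE 29, GRCh38). Reads tell them apart by 134 and 116 bases of the most abundant distal and proximal transcripts that the other does not hold. TPM, a transcript abundance that corrects for length, is used from here on to compare transcripts and genes. Distal TPM sums 7 transcripts. The distal transcript whose bases were counted averaged 1.54 of 20.9 distal TPM in unstimulated WT and 10.8 of 28.1 in unstimulated dE9. Bases that set the other distal transcripts apart were not counted. The proximal share is the proximal TPM over proximal plus distal TPM. It was 33.8, 39.3 and 40.5% in the PMA libraries labelled iE9, against 70.3, 71.0 and 73.0% in the unstimulated ones. It was 83.8, 51.4 and 64.3% in dE9 with PMA, against 96.3, 83.5 and 96.5% in unstimulated dE9. It was 63.0 and 71.7% in WT with PMA, against 94.2 and 94.0% in unstimulated WT. Groups were separate in the line labelled iE9 and in WT, and overlapped in dE9, where PMA library 1 was just above unstimulated library 2. The mean difference over lines was -28.6 percentage points (exact permutation test within lines, two-sided, p = 0.00167, adjusted over 3 share tests 0.00167; the smallest p possible is 0.000833).

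Mean distal TPM was higher and mean proximal TPM lower with PMA in each line. Distal TPM averaged 215 ± 38.2 with PMA and 79.0 ± 12.0 unstimulated in the libraries labelled iE9, 110.3 ± 71.4 and 28.1 ± 28.1 in dE9 (SD, n = 3 each), and 111 ± 19.1 and 20.9 ± 0.595 in WT (SD, n = 2 each). Proximal TPM averaged 134 ± 40.7 with PMA and 199.5 ± 44.0 unstimulated in the libraries labelled iE9, 191 ± 44.7 and 314 ± 42.3 in dE9 (SD, n = 3 each), and 229 ± 24.8 and 335 ± 0.467 in WT (SD, n = 2 each). These averages were not tested separately.

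The proximal share was also lower in the libraries labelled iE9 than in the other lines. It differed from dE9 by -28.6 points with PMA and by -20.6 points unstimulated, and from WT by -29.5 points with PMA and by -22.7 points unstimulated, with no overlap in any of the 4 comparisons. Each gave an exact two-sided permutation p = 0.1, the smallest that these group sizes allow. Between dE9 and WT the differences were -0.878 and -2.04 points, with overlap. HDAC1, the next coding gene 5921 bases downstream of LCK, averaged 434 ± 48.6 CPM with PMA and 686 ± 66.9 CPM unstimulated (SD, n = 8 each), a log2 fold change of -0.66 ± 0.10 (adjusted p = 9.08e-05, edgeR).

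**Figure D3:**
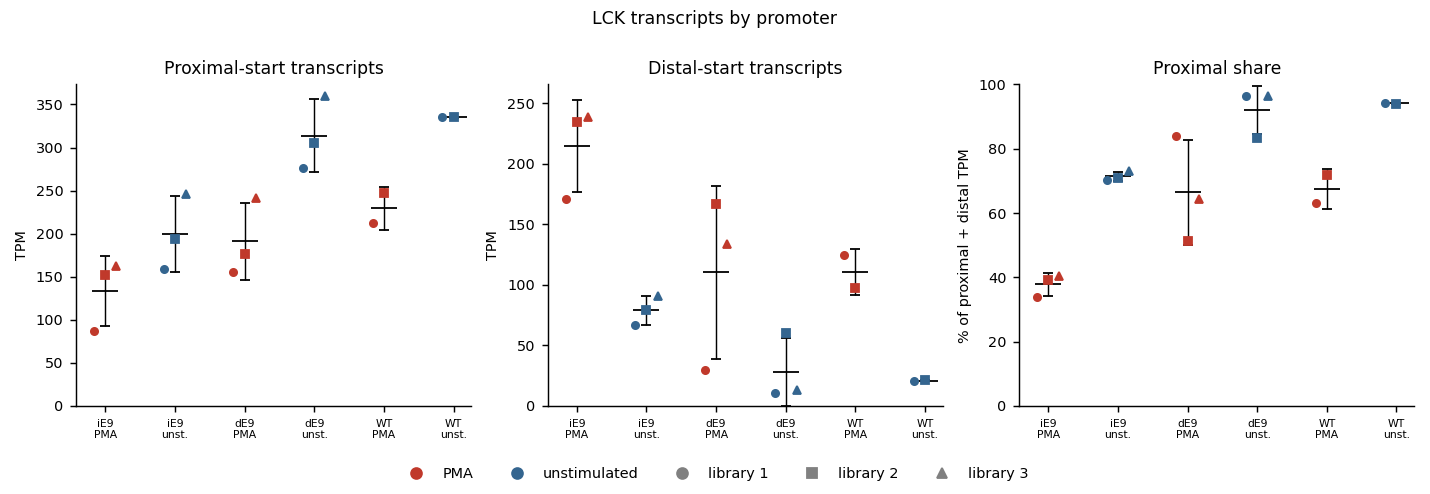
LCK TPM from the proximal and the distal promoter and the proximal share in percent, by library, with PMA left of unstimulated and the mean ± SD. The PMA libraries labelled iE9 sit between 33.8 and 40.5%, below every other library.

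FYN has a pair of mutually exclusive exons 7 that change the link to its kinase domain. The T form exon is 156 bases at chr6:111699515-111699670 and the B form exon 165 bases at chr6:111700104-111700268 (GENCODE 29, minus strand). They were aligned end to end, and 54.4% of the 169 alignment columns were identical. Both are printed to show how far the alternatives differ, with capitals for bases that differ from the other exon or face a gap.
FYN exon 7, T form: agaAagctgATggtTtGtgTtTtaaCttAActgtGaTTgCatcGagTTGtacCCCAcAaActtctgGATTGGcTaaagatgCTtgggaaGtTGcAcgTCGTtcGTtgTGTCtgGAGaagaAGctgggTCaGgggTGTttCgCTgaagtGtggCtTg
FYN exon 7, B form: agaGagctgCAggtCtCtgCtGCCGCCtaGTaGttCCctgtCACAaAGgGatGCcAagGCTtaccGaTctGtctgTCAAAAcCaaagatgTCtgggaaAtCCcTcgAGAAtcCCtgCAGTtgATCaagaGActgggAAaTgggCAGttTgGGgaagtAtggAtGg
The T form share of T plus B form TPM was 90.1, 90.3 and 89.0% in the PMA libraries labelled iE9, against 79.8, 86.1 and 89.5% in the unstimulated ones. It was 83.9, 89.8 and 90.5% in dE9 with PMA, against 71.4, 69.8 and 82.0% in unstimulated dE9. It was 82.9 and 80.9% in WT with PMA, against 78.6 and 79.1% in unstimulated WT. The groups were separate in dE9 and WT and overlapped in the line labelled iE9. The mean difference was 7.13 points (exact permutation test within lines, two-sided, p = 0.00167, adjusted over 3 share tests 0.00167). With protein-coding transcripts alone it was 3.25 points and did not pass (exact permutation p = 0.315). The B form was low, with 31.8 estimated counts in its lowest library and 200 in its highest. B form TPM averaged 5.73 with PMA and 2.67 unstimulated in the libraries labelled iE9, and 8.34 and 5.24 in WT. In dE9 its direction was the other way, at 4.47 with PMA and 6.07 unstimulated. A transcript with neither exon had 15.9 to 23.9 TPM in the PMA libraries labelled iE9 and 0 to 6.63 TPM in the unstimulated ones. It had 7.81 to 31.9 TPM in dE9 with PMA and 0 to 8.53 TPM in unstimulated dE9, and 18.9 to 19.0 TPM in WT with PMA and 3.8 to 8.82 TPM in unstimulated WT.

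**Figure D4:**
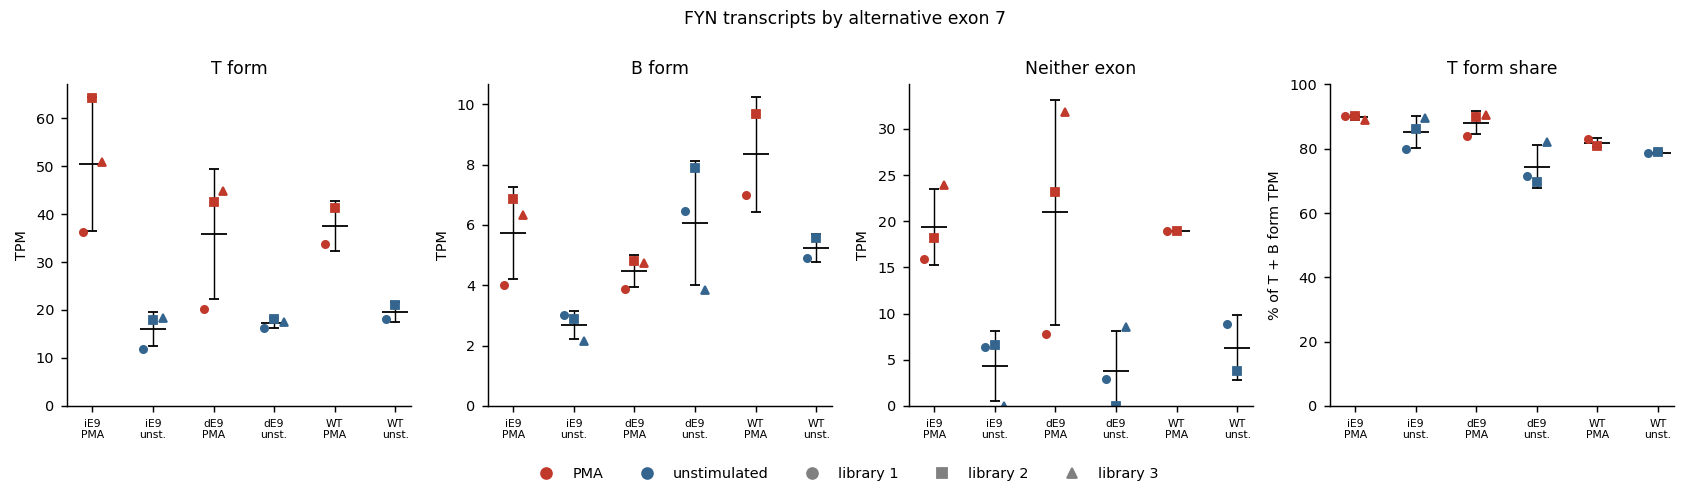
FYN TPM by alternative exon 7 (T form, B form, neither) and the T form share in percent, by library, with the mean ± SD. T form TPM averaged 50.5, 35.8 and 37.5 with PMA in iE9, dE9 and WT, against 15.996, 17.3 and 19.5 unstimulated.

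By TPM, CD3D was the most abundant of the 9 genes in every group, at 1985, 2043 and 2183 TPM with PMA in the line labelled iE9, dE9 and WT. LAT ranked second in every PMA group, with 1472 TPM in iE9, 794 TPM in dE9 and 858 TPM in WT. In unstimulated cells it ranked 4 in iE9, 5 in dE9 and 6 in WT, and LCP2 was the lowest in unstimulated dE9 and WT at 62.2 and 50.6 TPM. CD247 made up 5.15, 3.94 and 4.003% of the summed CD3 chain TPM in the PMA libraries labelled iE9, against 8.54, 5.89 and 5.76% in the unstimulated ones. It made up 5.18, 4.25 and 4.30% in dE9 with PMA, against 5.70, 6.09 and 4.96% in unstimulated dE9, where the groups overlapped. It made up 4.27 and 4.84% in WT with PMA, against 5.64 and 5.96% in unstimulated WT. The mean difference was -1.54 points (exact permutation test within lines, two-sided, p = 0.00167, adjusted over 3 share tests 0.00167). CD3D took most of the rest, averaging 65.0 ± 4.99% with PMA and 57.8 ± 9.46% unstimulated in the libraries labelled iE9 (SD, n = 3 each). With PMA the mean CD3D share was higher, and the mean CD3E and CD3G shares were lower, in each line. The lower CD247 share was thus not particular to CD247 and was not a lower level in dE9 or WT. Mean CD247 TPM was 135.4 with PMA and 87.8 unstimulated in dE9, and 139 and 79.3 in WT. In the libraries labelled iE9 it was 135.5 and 137.

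**Figure D5:**
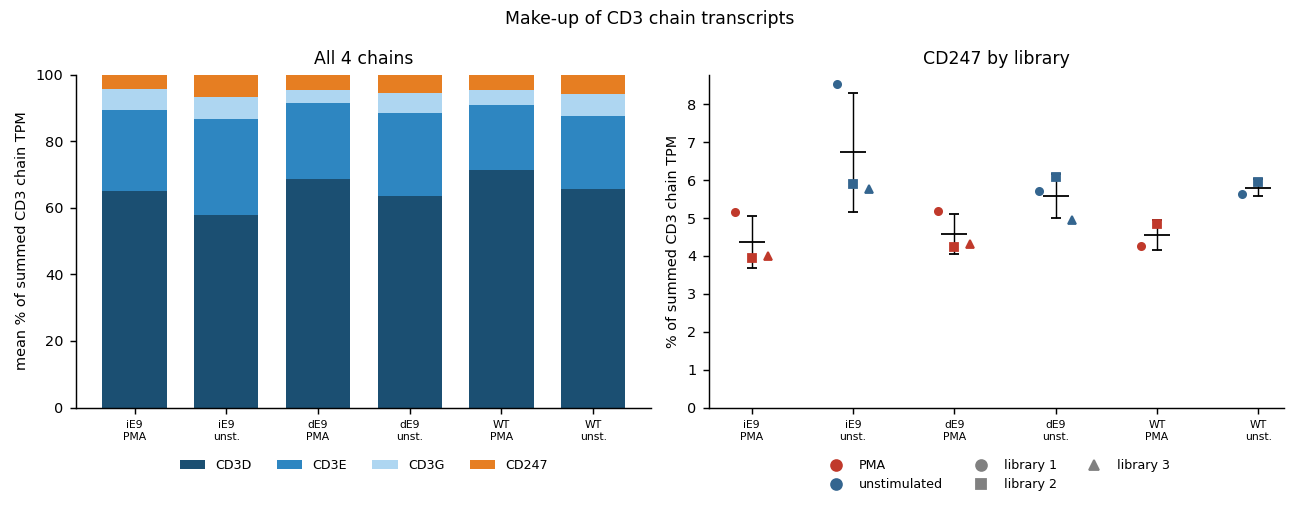
Mean share of each chain in the summed CD3 chain TPM by group (left, stacked to 100%) and the CD247 share by library (right, mean ± SD), with PMA left of unstimulated. CD247 was the smallest or second smallest share in each group.

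The share of each gene in its most abundant transcript passed in LCK alone of the 9, by -24.6 points (exact permutation test, adjusted p over the 9 genes 0.015). It did not pass without both iE9 libraries numbered 1 (adjusted p = 0.05, not below the threshold), although the difference was then -24.996 points. Paired by number, the adjusted p was 0.0703 (exact test swapping labels within pairs). That is the lowest value that 1 gene alone can reach with so few pairs, so the paired test could not decide. CD3E was the most uniform, with 93.2 to 97.8% in 1 transcript over all libraries, and CD3D held 39.6 to 61.3% in its leading one. Transcripts annotated as retained introns took 16.8 to 42.2% of CD3D TPM and 34.2 to 64.0% of ZAP70 TPM.

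Between lines, none of the 9 genes passed the edgeR test in any of the 6 comparisons or the 3 differences of response. For iE9 against dE9, 1.72% of all genes were called unstimulated and 2.61% with PMA. For iE9 against WT, 1.38% were called unstimulated and 1.12% with PMA. For dE9 against WT the share called was 0% in both treatments, and it was also 0% for the 3 differences of response. At unadjusted p under 0.05 there were 3 of the 9 genes in iE9 against dE9 unstimulated, 4 in iE9 against WT unstimulated, 1 in the iE9 minus WT response and 0 in the other 6. Over all 18073 genes the first 2 of these comparisons had 2726 and 2725 such genes. DESeq2 called CD3E in iE9 against WT unstimulated (adjusted p = 0.039) and none of the 9 elsewhere between lines, and limma voom called 0. For the 5 comparisons with no gene called, 560 and 459 genes had unadjusted p under 0.05 in dE9 against WT, unstimulated and with PMA. The iE9 minus dE9, iE9 minus WT and dE9 minus WT responses had 1239, 1022 and 282. DESeq2 called 21, 9, 130, 62 and 1 genes in those 5, and limma voom called 2, 0, 0, 0 and 0.

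LAT had the largest of the 9 fold changes between iE9 and each other line. Its lowest library labelled iE9 exceeded every dE9 and WT library within each treatment. The log2 fold change of iE9 over dE9 was 0.81 ± 0.59 with PMA (adjusted p = 0.481) and 1.24 ± 0.60 unstimulated (adjusted p = 0.345; edgeR). The unstimulated value was 0.73 without dE9 library 1 and 1.94 without dE9 library 2, and passed in neither case. Over WT it was 0.80 ± 0.67 with PMA (adjusted p = 0.611) and 1.72 ± 0.70 unstimulated (adjusted p = 0.26; edgeR). Without both dE9 libraries numbered 1, iE9 over WT unstimulated was 1.71 ± 0.28 and passed (adjusted p = 0.00616, edgeR). CD3E, CD247 and LCP2 were 0.93 ± 0.29, 0.75 ± 0.31 and 0.64 ± 0.24 higher on the log2 scale in unstimulated iE9 than in WT, with adjusted p of 0.144, 0.257 and 0.219 (edgeR). Without both iE9 libraries numbered 1, those of CD3E and CD247 were 0.53 and 0.30 and that of LCP2 was 0.81. In those libraries CD3E, CD3G and CD247 were 0.65, 0.81 and 0.71 above the group mean unstimulated on the log2 scale, and LCK, LCP2 and FYN were 0.41, 0.38 and 0.27 below it. The mitochondrial share of the same libraries was the highest of the series, and its part in these values was not tested.

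The partners of the complex were counted from lists of textbook members. Of 19 tested partners of LAT and SLP-76, 10 rose and 3 fell with PMA over the lines, while 26.6% of all genes rose and 26% fell. Their median log2 fold change was 0.79, against 0.03 for all genes tested. The adaptor SKAP1 averaged 79.1 ± 25.7 CPM with PMA and 15.2 ± 8.02 CPM unstimulated (SD, n = 8 each), a log2 fold change of 2.52 ± 0.28 (adjusted p = 4.28e-06, edgeR). TESPA1 and SOS2, a Ras exchange factor, rose by 1.81 ± 0.14 and 1.22 ± 0.11 on the log2 scale.

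Of 15 negative regulators, 7 rose and 1 fell, with a median log2 fold change of 0.28, against the same 26.6%, 26% and 0.03 for all genes. The ubiquitin ligase CBLB averaged 81.7 ± 18.6 CPM with PMA and 20.6 ± 6.96 CPM unstimulated (SD, n = 8 each), a log2 fold change of 2.04 ± 0.18 (adjusted p = 4.17e-07, edgeR). Its relative CBL rose by 0.70 ± 0.12 and the adaptor SIT1 by 1.46 ± 0.22 on the log2 scale. The phosphatase PTPN2 was the 1 that fell, averaging 34.5 ± 3.51 CPM with PMA and 61.6 ± 12.4 CPM unstimulated (SD, n = 8 each).

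Of 9 co-receptors and surface partners, 3 rose and 2 fell, with a median log2 fold change of 0.92 against 0.03 for all genes, of which 26.6% rose and 26% fell. The surface receptor CD6 averaged 82.8 ± 78.3 CPM with PMA and 9.04 ± 6.27 CPM unstimulated (SD, n = 8 each), a log2 fold change of 3.02 ± 0.34 (adjusted p = 4.34e-06, edgeR). The co-receptor genes were low throughout. CD4 averaged 8.40 ± 6.60 CPM with PMA and 1.97 ± 3.86 CPM unstimulated and rose, while CD8A averaged 2.23 ± 1.12 CPM with PMA and 10.5 ± 6.60 CPM unstimulated and fell (SD, n = 8 each). Of 7 tested T cell receptor chain genes, 6 rose, against 26.6% of all genes, among them TRAC, whose level also differed between lines. TRAC averaged 509.8 ± 139.7 CPM in PMA libraries labelled iE9 and 82.5 ± 48.0 CPM in dE9 with PMA (SD, n = 3 each; adjusted p = 0.0285, edgeR).

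Between iE9 and dE9, 1 of 19 partners passed with PMA and 1 unstimulated, and 0 of 15 negative regulators with PMA and 1 unstimulated. The T cell receptor chain list had 2 of 7 tested genes pass in each treatment, TRAC and TRAV8-4, both higher in iE9. None of the 9 co-receptors and surface partners passed in either treatment, against 2.61% of all genes with PMA and 1.72% unstimulated. SYK, the other Syk-family kinase, averaged 16.2 ± 2.49 CPM in unstimulated libraries labelled iE9 and 84.8 ± 35.2 CPM in unstimulated dE9 (SD, n = 3 each), a log2 fold change of -2.39 ± 0.35 (adjusted p = 0.00378, edgeR). The adaptor DOK2 averaged 64.9 ± 14.5 CPM in unstimulated libraries labelled iE9 and 28.1 ± 4.63 CPM in unstimulated dE9 (SD, n = 3 each), a log2 fold change of 1.21 ± 0.24 (adjusted p = 0.0234, edgeR).

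Patterns over the 6 groups were compared with those of 10679 protein-coding genes by the root mean square difference of centred log2 CPM. CD3G was nearest to SLC39A6 and BCL11B, at 0.03 and 0.04. CD3D was nearest to TSC22D4 and OSBPL3, CD3E to ATF6B and PARP3, CD247 to SLC25A16 and TRPV2, and ZAP70 to ZMYM5 and FLCN. LCK was nearest to COL4A3BP and ABI2, and FYN to PRRC2B and CDK17. LAT was nearest to TP53INP1 and FCER1G, at 0.15 each, and LCP2 to GIPR at 0.11 and PPP1R18 at 0.15. No other member of the 9 was as near to a member as these genes. They were picked as the nearest of 10679, so this says nothing about the 9 as a set. The distance also depends on how much a gene varies over the groups. The root mean square of the centred pattern itself was 0.13 for LCK and 0.21 for ZAP70, against 1.59 for LAT. Among the 9, CD3G and ZAP70 were the nearest pair, at 0.16.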

How the data were processed

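The deposited values are estimated counts and TPM per transcript, per the file headers. The build hg38 and the tools Salmon and DESeq2 are named in the submitters' processing notes. No source used here states the read strand setting or the tool versions. The deposited gene TPM table equalled the sums of transcript TPM to within 1.82e-12. All 205870 transcripts matched GENCODE 29. Expected (estimated) counts deposited by the authors were added up over the transcripts of a gene, then rounded, since edgeR models whole counts.

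edgeR 4.0.16 in R 4.3.3 was run with filterByExpr, TMM scaling and a quasi-likelihood test on 16 libraries, with 1 coefficient for each of 6 groups, over 18073 genes. The biological coefficient of variation was 31.8%. A gene is called at Benjamini-Hochberg adjusted p under 0.05, and the fit was tested on simulated data. DESeq2 1.42.0, limma 3.58.1 and other settings were alternatives. Transcript shares were compared on TPM by exact permutation of PMA and unstimulated labels within lines (2400 arrangements). Libraries with the same number deviated together within iE9 (correlations 0.19 to 0.441) and dE9 (0.24 to 0.305), but not in WT (0.073), so the block by number within lines is given beside results it changes.

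The 9 genes and all lists were chosen with earlier results of these data known. All 9 are described in every comparison. From each partner list, up to 4 called genes with the smallest adjusted p with PMA, and up to 2 between iE9 and dE9, could be named. For each of the 9, the 2 genes of most similar pattern were named. Some genes that this rule selects are not reported here.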

Additional observations from a re-analysis of the deposited data

How the results depend on the processing

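Of 18 calls with PMA among the 9 genes, 14 held under every alternative other than leaving out 1 library, 12 held whichever 1 library was left out, 11 held under all of these, and 0 reversed. The number of genes called in WT was 8 when only the groups compared were fitted and 7 with the replicate block within each line. Over the mean of the 3 lines it was 8 without the filter on low counts and 8 with that block. With 1 replicate block across all lines the counts were 4 in WT, 5 in dE9, 4 in iE9 and 6 over the lines. The share of all genes called is not given for these alternative fits. Without 1 library the counts ranged from 1 to 6 in WT, 4 to 6 in dE9, 2 to 6 in iE9 and 5 to 7 over the lines. Where 1 library was left in an arm, it was assumed to vary like the other groups. Calls were lost for LAT in dE9 (2.76, adjusted p = 0.0502) and CD3D in iE9 (0.71, adjusted p = 0.0693) when only the groups compared were fitted by edgeR, and for CD3E in dE9 without both dE9 libraries numbered 1 (0.75, adjusted p = 0.0915). Between lines the main count of 0 became 1 without the filter in iE9 against dE9, unstimulated and with PMA. In unstimulated iE9 against WT it became 1 with DESeq2, 2 without the filter, 1 when only the groups compared were fitted and 1 without both dE9 libraries numbered 1. The causes were not tested.

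Reversed log2 values were CD247 in iE9 (0.042 without both iE9 libraries numbered 1) and LCK over the lines (0.014 with upper-quartile scaling, 0.048 with protein-coding transcripts only). Without 1 library they ranged from -0.41 to 0.32 and from -0.11 to 0.039, and LCK in dE9 from -0.34 to 0.033. The FYN T form share was 3.25 points with protein-coding transcripts only. The number of genes whose leading transcript share passed was 0 without both iE9 libraries numbered 1 and 0 when paired by replicate block. In that paired test 1 gene alone could not pass, whatever its difference. Leading transcript shares that changed sign were those of CD3G (0.304 points), ZAP70 (-0.360 points) and LAT (0.442 points) with protein-coding transcripts only, and CD247 without both iE9 (0.235 points) or both dE9 (0.600 points) libraries numbered 1. Without 1 library CD3D ranged from -3.15 to 0.350 points, CD247 from -3.37 to 2.35, ZAP70 from -0.630 to 4.28 and LAT from -2.53 to 0.299.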
